A study of Mus musculus with 14 samples.

Results

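The nuclear genes for subunits of the mitochondrial oxidative phosphorylation complexes were followed across thymocyte stages, genotypes and leukemias. Of 20972 named genes with a probe on the array, 84 had a symbol beginning as those of subunit genes do (Nduf with a, b, c, s or v and a number, Cox4 to Cox8, Uqcr, Atp5, or Sdha to Sdhd), and they were represented by 113 probes. The scanner files hold no gene symbols, so the symbol was that of the probe's RefSeq transcript, and each gene was read from its probe with the highest mean. Grouped by symbol, complex I had 37 genes, complex II 4, complex III 8, complex IV 18 and complex V 17. A gene was tested where its probe was well above background on at least 2 arrays, and the 80 tested genes were above background on all 14 arrays.

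The arrays measured total RNA from CD4-CD8- (double-negative, DN) thymocytes of C57BL/6 background, sorted by 2 surface markers. DN1 cells carry CD44 without CD25 (CD44+CD25-), DN2 cells carry both, and DN3 cells have lost CD44 and kept CD25. Lethally irradiated CD45.1+ wild-type mice had received total marrow carrying Cre-ERT2, a Cre recombinase fused to an estrogen receptor domain, with floxed Ezh2 (Ezh2Δ/Δ, called Ezh2-deleted), floxed p53 (p53Δ/Δ, p53-deleted), both (Ezh2Δ/Δp53Δ/Δ, double-deleted) or neither (WT). The WT controls thus carried Cre-ERT2 too. Deletion was made 4 weeks after transplantation and cells were sorted at 3 months, 1 array for each of the 4 genotypes at each of the 3 stages. The other 2 arrays held DN2-sorted leukemic cells of mice 13 and 19, both double-deleted, whose leukemia is labelled ETP-ALL (of early T-cell precursors), for which no time was given. The labels do not say whether stages or genotypes came from separate animals or from pools, so p-values measure only the spread between these arrays. A treatment note speaks of bone marrow cells, where every other label names the thymus.

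Complex I (NADH dehydrogenase) and complex II (succinate dehydrogenase) pass electrons to ubiquinone, complex III (cytochrome bc1) passes them on to cytochrome c, and complex IV (cytochrome c oxidase) reduces oxygen. Complexes I, III and IV pump protons, and complex V (ATP synthase) uses the gradient to make ATP. Most subunits are encoded in the nucleus. A smaller core of the complexes other than II is encoded in mitochondrial DNA, and no array probe was matched to those genes. Nuclear subunit genes often carry sites for NRF1, GABP and YY1 near their start, and several complex IV subunits have a widely expressed form and a form restricted to tissues such as heart, skeletal muscle, testis or lung. DN1 to DN3 are the steps in which thymic progenitors commit to the T-cell lineage and begin to rearrange antigen receptor genes.

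Promoter windows were available in RefSeq (GRCm38.p6) for 66 of the 80 genes. Each window spanned 250 bases before to 50 bases after the start, and 3 motifs were searched as exact letters on both strands, with overlaps allowed: GCGCA, any base and GCGC for NRF1, CCGGAAGTG for GABPA and AAGATGGCG for YY1. The NRF1 letters were found in 17 of 66 subunit genes (25.8%), against 5.19% of 27025 genes with a window. The YY1 letters were found in 7 (10.6%), against 1.64% of all genes, and the GABPA letters in 2 (3.03%), against 2.25%. The 66 genes were above background on every array, while the 27025 genes were not filtered by signal in these cells. A gene counted where any of its starts held the letters. The median DN2 minus DN1 difference, described below, was 0.50 (log2) for the 25 genes with a motif and 0.51 for the 41 without. Of the sequences shown (250 bases before the start, 5′ to 3′, motif letters on either strand in capitals), Ndufb4 carries the NRF1 letters, Uqcrh the GABPA letters and 1 of the Atp5j starts the YY1 letters. Cox6b2, with the largest stage difference of the set, had none of the 3 in its window.
Ndufb4 (chr16:37654369-37654618, minus strand): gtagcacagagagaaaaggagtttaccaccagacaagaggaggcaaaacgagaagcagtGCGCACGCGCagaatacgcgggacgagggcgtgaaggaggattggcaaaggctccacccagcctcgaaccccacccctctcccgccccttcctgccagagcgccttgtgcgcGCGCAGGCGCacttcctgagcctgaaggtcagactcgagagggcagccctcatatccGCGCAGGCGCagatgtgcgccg
Uqcrh (chr4:116075071-116075320, minus strand): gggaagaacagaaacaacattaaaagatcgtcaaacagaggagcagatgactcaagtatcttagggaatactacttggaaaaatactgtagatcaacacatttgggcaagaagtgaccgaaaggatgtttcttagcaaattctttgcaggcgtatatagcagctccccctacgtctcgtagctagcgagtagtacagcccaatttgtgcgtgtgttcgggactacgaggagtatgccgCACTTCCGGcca
Atp5j (chr16:84834977-84835226, minus strand): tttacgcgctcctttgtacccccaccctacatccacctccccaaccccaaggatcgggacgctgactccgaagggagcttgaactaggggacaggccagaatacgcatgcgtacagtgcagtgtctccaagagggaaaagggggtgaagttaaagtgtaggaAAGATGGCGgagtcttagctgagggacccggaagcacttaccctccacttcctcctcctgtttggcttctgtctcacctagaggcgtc
Cox6b2 (chr7:4753095-4753344, minus strand): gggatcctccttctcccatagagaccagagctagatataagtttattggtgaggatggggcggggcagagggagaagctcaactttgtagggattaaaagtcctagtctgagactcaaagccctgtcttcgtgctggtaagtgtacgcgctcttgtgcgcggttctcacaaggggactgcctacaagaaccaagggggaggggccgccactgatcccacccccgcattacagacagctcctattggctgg

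Levels are log2 of the background-corrected signal minus the array's 75th percentile, so a level of 0 is the brightness of that percentile. The subunit genes were among the brighter probes: their median level lay between 5.32 (WT DN1) and 6.80 (Ezh2-deleted DN3). In order of stage (DN1, DN2, DN3) the median of the 80 genes was 5.83, 6.76 and 6.80 in Ezh2-deleted cells and 6.67, 6.20 and 6.55 in p53-deleted cells. It was 5.95, 6.40 and 6.30 in double-deleted cells, 6.19 and 6.59 in the leukemias of mice 13 and 19, and 5.32, 6.43 and 6.47 in WT cells. DN1 held the lowest median in the Ezh2-deleted, double-deleted and WT series and the highest in the p53-deleted series. The median SD over the 14 arrays was 0.49 for a subunit gene and 0.56 for the 15704 features above background on every array. Levels of different genes are probe brightness and were not compared with each other.

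**Figure D1:**
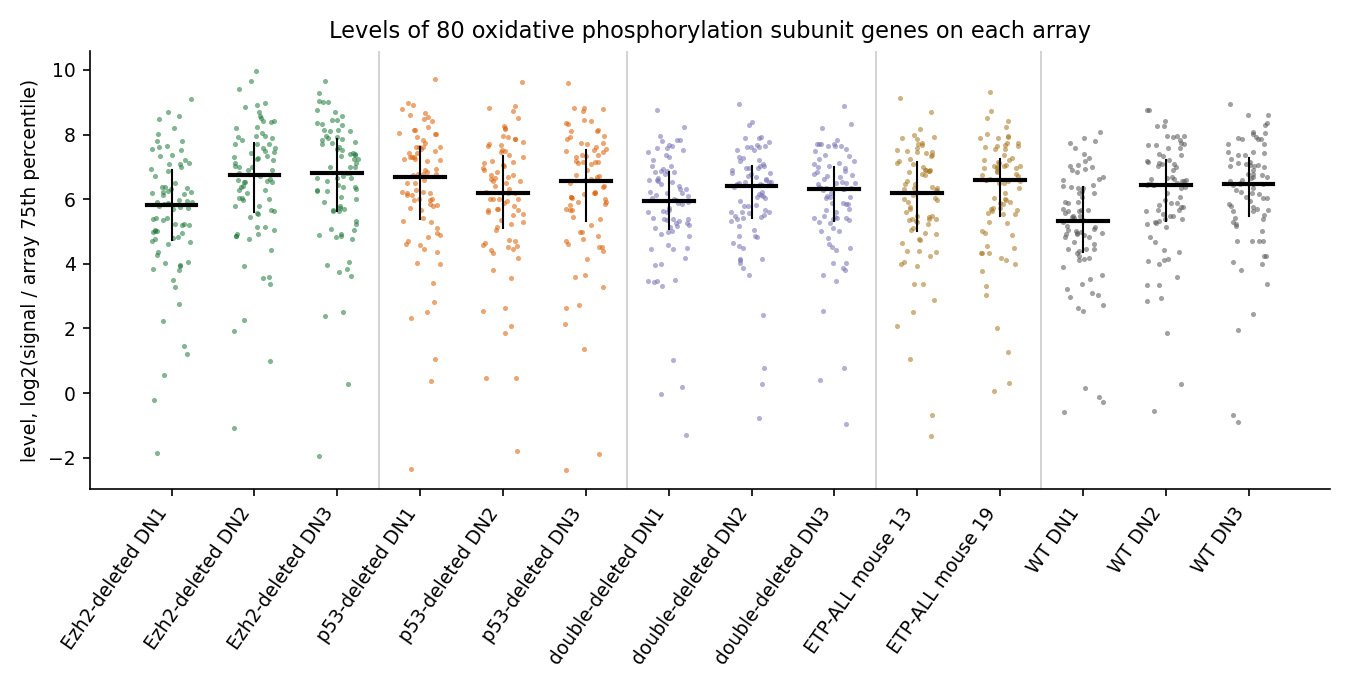
Level of each of 80 subunit genes (points) on each of 14 arrays (log2 of signal over the array's 75th percentile). Horizontal bars are medians and vertical lines the 25th to 75th percentile of the genes; the medians run from 5.32 in WT DN1 to 6.80 in Ezh2-deleted DN3, and p53-deleted DN1 lies at 6.67.

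Of the other 4 genes, none was above background on more than 1 array. Cox7b2, a testis form of subunit 7b, passed only in Ezh2-deleted DN3 cells, with a level of -1.32. Cox8b, a heart and muscle form of subunit 8, passed only in double-deleted DN1 cells, with 0.46. Cox8c, a testis form, and Ndufa4l2, a paralog of Ndufa4 induced by low oxygen, passed on 0 of 14 arrays.

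The arrays lay on 4 slides. Slide 1 held the 3 WT arrays with double-deleted DN2 and DN3, slide 2 the 6 Ezh2-deleted and p53-deleted arrays, slide 3 double-deleted DN1 and slide 4 both leukemias. The 75th percentile of signal was 61.3 to 123 on slide 2 and 271 to 524 on the other slides, and between 40.3% and 50.4% of probes were above background on an array. Trp53 (p53) was not above background on the 3 p53-deleted arrays (-3.50, -5.36 and -4.88 in DN1, DN2 and DN3), against 0.11, 1.03 and 1.28 in WT. In double-deleted cells it was -3.88, -2.40 and -0.92 and above background on all 3 arrays, and in the leukemias it was above background in mouse 19 and not in mouse 13. The Ezh2 probe was above background everywhere, and its position relative to the deleted part is not given, so it does not check the labels.

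In DN2 compared with DN1 cells, subunit genes of every complex were higher in 3 of the 4 genotypes. The median difference was 0.98 (1.97-fold) in Ezh2-deleted cells, where 80 of 80 genes were higher, and 0.90 (1.87-fold) in WT cells, where 78 were. It was 0.32 (1.25-fold) in double-deleted cells, with 70 of 80 higher. In p53-deleted cells it was -0.33 (0.795-fold) and 8 of 80 genes were higher. Each of these genotype pairs is 1 array against 1 and has no replicate check.

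The complexes had similar medians within a genotype. In WT cells the DN2 minus DN1 median was 0.88 for complex I, 0.81 for complex II, 0.75 for complex III, 0.90 for complex IV and 0.96 for complex V. In Ezh2-deleted cells the same 5 medians ran from 0.84 (complex II) to 1.06 (complex V). They ran from 0.20 (complex II) to 0.39 (complex IV) in double-deleted cells and from -0.42 (complex IV) to -0.10 (complex II) in p53-deleted cells. The exceptions in WT cells were Cox4i2 (-0.43), the lung-enriched form of subunit 4, and Cox7a2l (-0.15), which takes part in joining complexes III and IV into supercomplexes.

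The median over all features at this step was 0.31 in Ezh2-deleted, 0.00 in p53-deleted, 0.11 in double-deleted and 0.09 in WT cells. With quantile normalization the subunit medians were 0.58 in Ezh2-deleted, -0.26 in p53-deleted, 0.19 in double-deleted and 0.47 in WT cells, where the all-feature medians were 0.08, -0.01, 0.08 and 0.04. The signs held, and the size was smaller in each genotype. DN1 of the double-deleted series lay on a slide of its own, while the other 3 pairs each shared a slide.

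**Figure D2:**
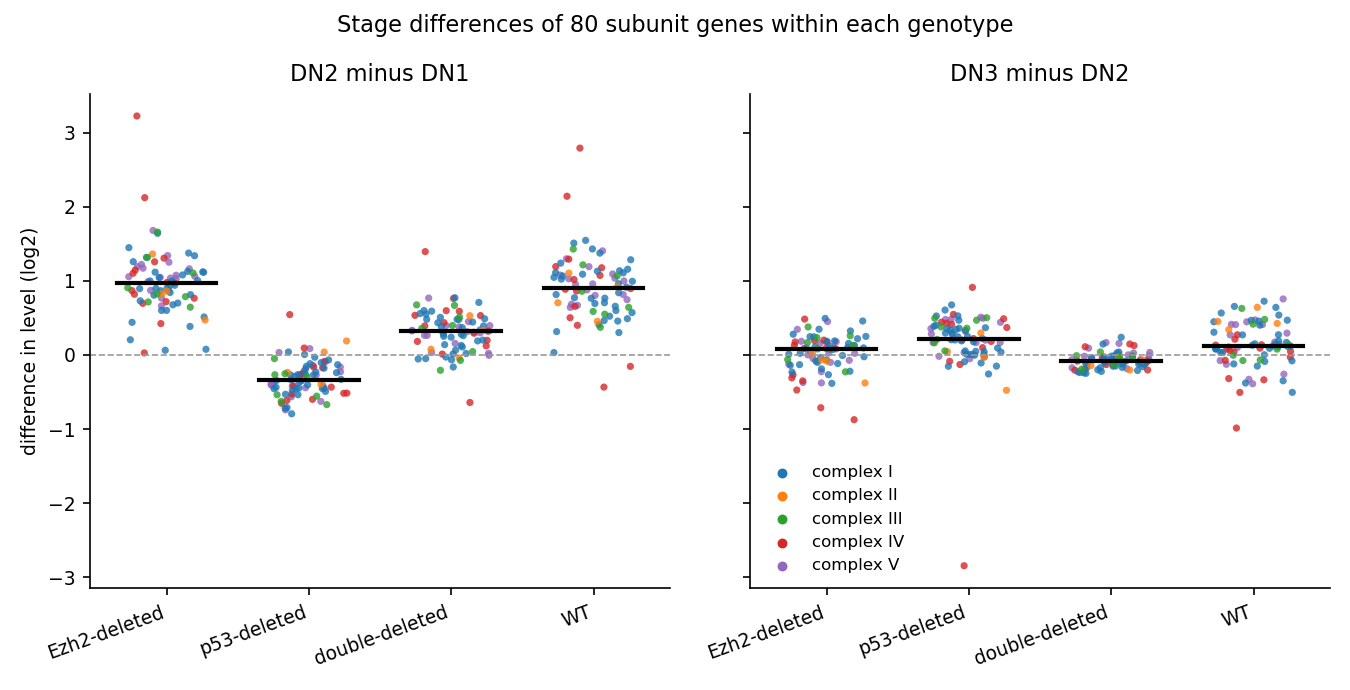
Difference in level (log2) of each of 80 subunit genes between stages, by genotype, with points coloured by complex and bars at the median. Left, DN2 minus DN1, with medians of 0.98 in Ezh2-deleted, -0.33 in p53-deleted, 0.32 in double-deleted and 0.90 in WT cells; right, DN3 minus DN2, with medians from -0.08 to 0.22.

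Across the 4 genotypes taken as replicates of a stage, no subunit gene passed limma's test in DN2 against DN1 (Benjamini-Hochberg adjusted over 27035 features), and 11 had an unadjusted p under 0.05. Of all features, 1.39% were called, 0.185% upward and 1.21% downward. The median fitted difference of the 80 genes was 0.49, against 0.14 for all features, and 79 of the 80 were higher. It was 0.55 with the slide as a block, 0.95 within slide 1, 0.32 within slide 2 and 0.27 with quantile normalization. The only DN1 array of slide 1 is the WT one. With the slide as a block, the double-deleted DN1 array, alone on its slide, adds nothing to the estimate. Cox7a2l was the 1 lower gene (-0.26 ± 0.18, SE, n = 4 arrays a stage). For every subunit gene the DN2 and DN1 arrays overlapped, where 0.999% of all features had all DN2 arrays higher and 1.66% all lower. At this size of design the test recovered 54% of simulated features with a log2 change of 2 and 6% of those with a change of 1. The simulated noise was independent between arrays and held no slide effect.

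Cox6b2, known as the testis form of subunit 6b, had the largest difference. Its levels in Ezh2-deleted, p53-deleted, double-deleted and WT cells were 4.43, 0.45, 2.42 and 2.94 in DN2, against 1.20, 1.05, 1.02 and 0.15 in DN1. The p53-deleted DN2 array lay below 3 of the 4 DN1 arrays, and the other DN2 arrays lay above all of them. The fitted difference was 1.70 ± 0.53 (SE; limma adjusted p = 0.159).

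Cox7a1, the heart and muscle form of subunit 7a, followed. It had 1.91, 2.09, 0.78 and 1.86 in DN2 cells (same order of genotypes), against -0.22, 2.50, 0.19 and -0.28 in DN1 cells. The p53-deleted DN1 array was higher than every DN2 array, and the remaining DN1 arrays were lower than every DN2 array. The fitted difference was 1.11 ± 0.45 (SE; limma adjusted p = 0.220). Of 5 muscle genes listed as markers of that tissue, 2 were tested, and 0 of those 2 were above background on each DN2 array, as were 0 to 1 on the DN1 arrays.

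Atp5g1, which encodes the membrane ring subunit c of ATP synthase, had 8.39, 7.51, 7.61 and 7.66 in DN2 cells, against 6.71, 7.74, 6.84 and 6.26 in DN1 cells. It differed by 0.91 ± 0.31 (SE; limma adjusted p = 0.181). Ndufa12, an accessory subunit of complex I, had 7.49, 6.83, 6.51 and 6.36 in DN2 cells, against 5.85, 7.18, 5.74 and 4.99 in DN1 cells, a difference of 0.86 ± 0.32 (adjusted p = 0.199). In both genes the p53-deleted DN1 array alone reached into the DN2 range.

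The core and widely expressed subunits were read next. The fitted DN2 minus DN1 differences of Ndufs1 and Ndufv1, which carry electrons through complex I, were 0.20 and 0.56. Those of Sdha and Sdhb, the catalytic subunits of complex II, were 0.27 and 0.40, and those of Uqcrc1 and Uqcrfs1 of complex III were 0.57 and 0.29. The widely expressed complex IV genes Cox4i1, Cox5a, Cox6a1 and Cox7a2 had 0.24, 0.56, 0.41 and 0.45. Atp5a1 and Atp5b, the alpha and beta subunits of the ATP synthase head, had 0.33 and 0.48, and the adjusted p of these 12 genes ran from 0.245 to 0.672.

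**Figure D3:**
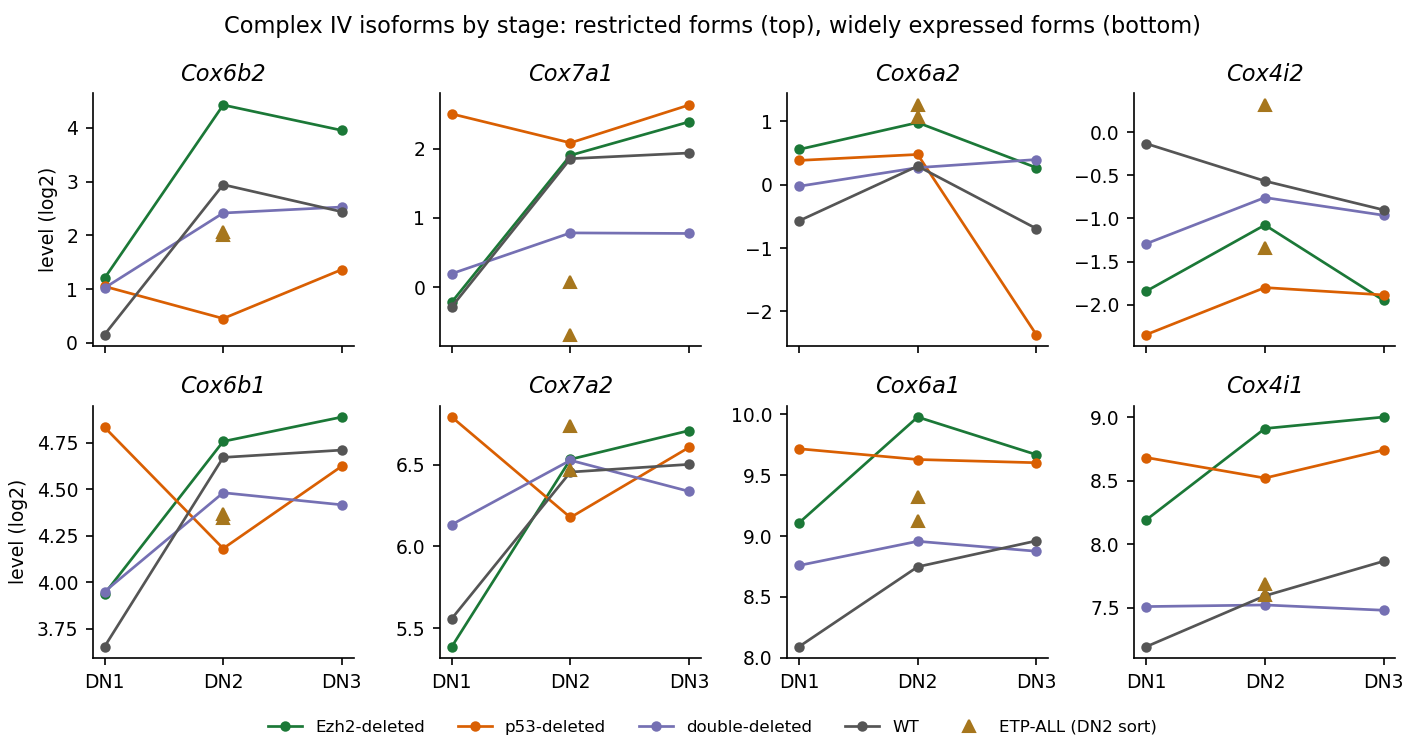
Levels (log2) of 4 complex IV genes with tissue-restricted expression (top) and of their widely expressed counterparts (bottom) in DN1, DN2 and DN3, with 1 point for each array, lines joining a genotype and triangles for the 2 leukemias. Cox6b2 reached 4.43 in Ezh2-deleted DN2 and 0.45 in p53-deleted DN2, and Cox7a1 lay at 2.50 in p53-deleted DN1 and at -0.28 in WT DN1.

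Most subunit genes went the other way in the p53-deleted arrays, so a larger median and more upward calls follow from leaving those arrays out. Without them, a step added after the first results were seen, there were 11 subunit genes that rose in DN2 cells and 0 that fell (limma adjusted p under 0.05). This was 13.8% of the 80, against 11.3% of all features called in either direction, 5.61% upward and 5.66% downward. The 11 were Cox6b2 (2.47 ± 0.35, SE; adjusted p = 0.0119), Cox7a1 (1.62), Atp5g1 (1.28), Ndufa12 (1.26), Uqcr11 (1.20), Ndufb2 (1.17), Ndufc1 (1.17), Cox7c (1.09), Uqcrb (0.95), Ndufs8 (0.95) and Cox5b (0.92). Complex I gave 4 of them (Ndufs8 binds iron-sulfur clusters of the electron path, the other 3 are accessory), complex III 2, complex IV 4 and complex V 1. The median difference of the 80 genes was then 0.74, and calls over all features also went up, to 11.3%, against 1.39% with all arrays. Leaving out the p53-deleted DN1 array alone gave 12 genes (9.58% of all features), and leaving out the p53-deleted DN2 array gave 1, Cox6b2 (6.61% of all features). Whether the step differs between p53-deleted and other cells was not tested, since each genotype has 1 array a stage.

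Other mitochondrial and metabolic gene lists also had their lowest median in p53-deleted cells at this step. The 77 tested mitochondrial ribosome genes had DN2 minus DN1 medians of 0.98 in Ezh2-deleted, -0.29 in p53-deleted, 0.43 in double-deleted and 1.03 in WT cells. Carriers, cytochrome c and the ATPase inhibitor (13 genes) had 1.12, -0.28, 0.26 and 0.92, citric acid cycle genes (17) 0.59, -0.04, 0.27 and 0.69, and assembly factors (38) 0.74, -0.19, 0.20 and 0.68. Regulators of mitochondrial biogenesis (16) had 0.70, -0.07, 0.29 and 0.62, and glycolysis genes (21) 0.61, 0.02, 0.13 and 0.47. In these 6 lists 0 genes were called in either direction.

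**Figure D4:**
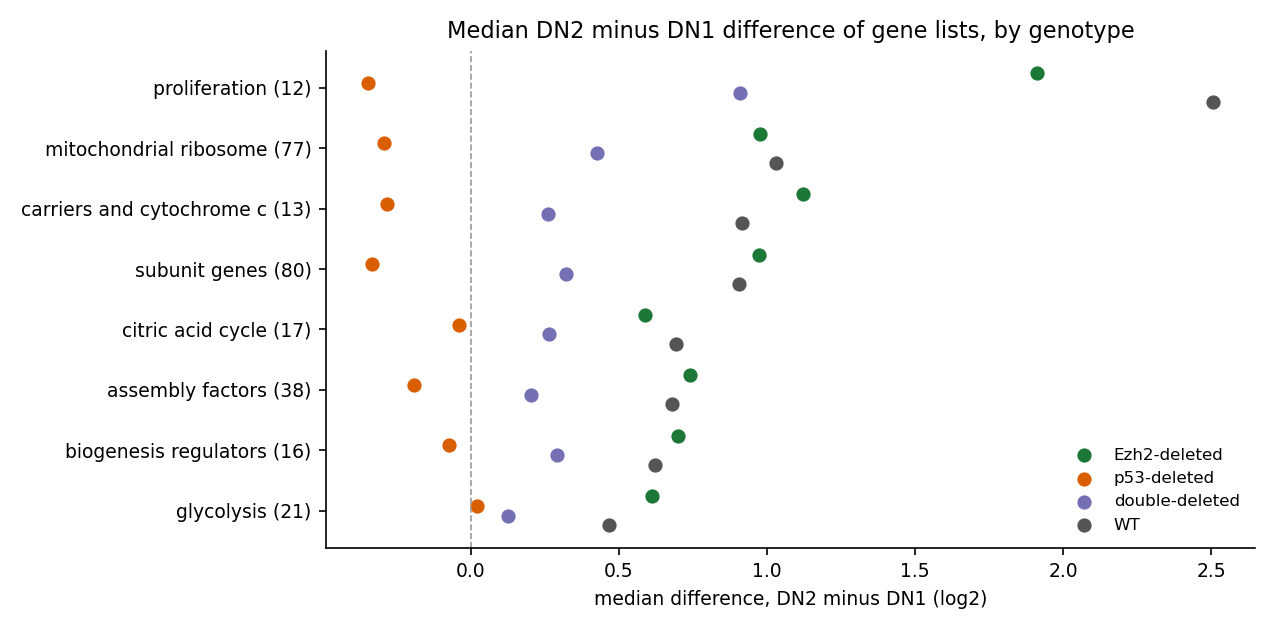
Median DN2 minus DN1 difference (log2) of 8 gene lists, with the number of tested genes in brackets and 1 point for each genotype. The p53-deleted points lie between -0.35 and 0.02, and the Ezh2-deleted and WT points lie between 0.47 and 2.50, with the double-deleted points from 0.13 to 0.91.

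Proliferation genes and markers of other blood cells also differed between the stages. The 12 proliferation genes had DN2 minus DN1 medians of 1.91 in Ezh2-deleted, -0.35 in p53-deleted, 0.91 in double-deleted and 2.50 in WT cells, with 0 called, and their summed level (log2) was 8.32 to 9.50 in DN2 and 6.80 to 8.65 in DN1. The 9 natural killer cell markers had medians of -6.04, -2.47, -5.13 and -7.18, and 6 of them fell (Klra7, Klrd1, Klre1, Klrb1c, Eomes and Il2rb). All 9 were above background on each DN1 array, as were 3 to 9 on the DN2 arrays, with all 9 in p53-deleted DN2 cells, and their summed level was 5.97 to 9.06 in DN2 and 8.63 to 9.60 in DN1. Of 8 myeloid markers, 2 fell (Ms4a3 and Prtn3), and the gating marker Il2ra (CD25) rose. The 4 tested B-cell markers had a median fitted difference of -2.80, and 1 of the 4 was above background on each DN2 array, against 4 on each DN1 array. The p53-deleted DN1 array stood apart, with 3 of the 8 myeloid markers above background and a summed level of 2.46, where the other DN1 arrays had all 8 and 5.49 to 6.68. Its summed level of the 7 thymocyte stage genes was 9.95, where the other DN1 arrays had 7.36 to 8.74. Their part in the subunit gene differences was not tested, and in sorted bulk RNA fewer cells of a type and less RNA per cell cannot be told apart.

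Between DN3 and DN2 cells the subunit genes differed little on the median. No gene passed limma's test (1 had an unadjusted p under 0.05), against 0.0222% of all features called (0.0037% upward and 0.0185% downward). Without the p53-deleted arrays no subunit gene passed either, against 0.0111% of all features, all of them lower (0.0111%). The fitted median was 0.10, against 0.02 for all features, with 63 of 80 higher. By genotype the DN3 minus DN2 median was 0.08 in Ezh2-deleted, 0.22 in p53-deleted, -0.08 in double-deleted and 0.13 in WT cells, and without the p53-deleted DN2 array the fitted median was -0.06. The 12 core and widely expressed genes named above lay between -0.06 (Sdha) and 0.20 (Atp5b).

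Cox6a2, the heart and muscle form of subunit 6a, had the largest DN3 difference. It had 0.27, -2.37, 0.40 and -0.69 in DN3 cells of Ezh2-deleted, p53-deleted, double-deleted and WT mice, against 0.98, 0.48, 0.27 and 0.29 in DN2 cells. The double-deleted pair went the other way from the other 3 pairs. The fitted difference was -1.10 ± 0.48 (SE; limma adjusted p = 0.770). Cox4i2 had -0.37, Cox7a1 0.28 and Ndufa5 0.27, each within 1.5 SE of 0. Cox6b2 had 3.95, 1.37, 2.53 and 2.44 in DN3 cells, against 4.43, 0.45, 2.42 and 2.94 in DN2 cells (same order of genotypes), higher in 2 pairs and lower in the other 2.

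Double-deleted cells compared with WT cells gave no call among the subunit genes (limma; 1 with an unadjusted p under 0.05), while 7.19% of all features were called (3.72% upward and 3.48% downward). The fitted median was 0.13, against -0.11 for all features, with 52 of 80 higher. The stages differed: the double-deleted minus WT median was 0.57 in DN1 (75 of 80 higher), 0.02 in DN2 (42 higher) and -0.23 in DN3 (4 higher). With quantile normalization these were 0.48, 0.17 and 0.08, so the DN3 sign flipped with the scaling. The all-feature medians at DN1, DN2 and DN3 were -0.07, -0.16 and -0.20, against 0.01, -0.06 and -0.05 with quantile normalization. The DN1 pair lay on different slides, and the fitted median was -0.11 within slide 1, -0.10 without the WT DN1 array and 0.02 without the double-deleted DN1 array.

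All double-deleted arrays lay above all WT arrays for 9.72% of all features and below them for 22.3%. Among the 80 subunit genes they lay above for 1 (1.25%) and below for 0. Cox7a1 (-0.59 ± 0.51, SE, n = 3 arrays a genotype), Atp5e (-0.57 ± 0.29) and Ndufb4 (-0.55 ± 0.34) had the largest negative differences, with limma adjusted p of 0.497, 0.236 and 0.326; Atp5e is the epsilon subunit of ATP synthase and Ndufb4 a complex I accessory subunit.

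With quantile normalization 2 subunit genes passed in this comparison, Atp5b and Cox6a1, against 7.39% of all features. With normexp background correction and quantile normalization together 4 did, among them these and Ndufa13, against 8.04% of all features, and all were upward. They were chosen after their values were seen.

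Ezh2-deleted cells compared with p53-deleted cells, all on slide 2, gave no call among the subunit genes (limma; 2 with an unadjusted p under 0.05), against 3.98% of all features (2.27% upward and 1.71% downward). The fitted median was 0.002, against 0.08 for all features. By stage the Ezh2-deleted minus p53-deleted median was -0.79 in DN1 (5 of 80 higher), 0.50 in DN2 (77 higher) and 0.27 in DN3 (76 higher). With quantile normalization they were -0.68, 0.12 and -0.03, so the DN3 sign flipped, and the fitted median over stages was -0.20.

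Cox6b2 again stood farthest apart, with 1.20, 4.43 and 3.95 in Ezh2-deleted DN1, DN2 and DN3 cells, against 1.05, 0.45 and 1.37 in p53-deleted cells. The 2 genotypes were close in DN1 and more than 2 log2 units apart in DN2 and DN3. The difference was 2.24 ± 0.61 (SE; limma adjusted p = 0.0822), and without the p53-deleted DN1 array it was the 1 call. The share of all features called in that fit is not given here. Cox6a2 (1.10), Cox7a1 (-1.05) and Atp5o (0.82), the last a stalk subunit of ATP synthase, had adjusted p of 0.314, 0.305 and 0.189. Sdha and Atp5d were higher on every Ezh2-deleted array than on any p53-deleted array, by means of 0.45 and 0.41. The closest arrays nearly met. The lowest Ezh2-deleted array had 4.67 for Sdha and 6.2274 for Atp5d, against 4.64 and 6.2267 on the highest p53-deleted array. Of all features, 11.6% were higher on every Ezh2-deleted array, with 8.55% lower on every array.

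The remaining comparisons with WT crossed slides, so slide and genotype cannot be told apart. In Ezh2-deleted cells 18 subunit genes were called higher and 4 lower (27.5% of the 80), against 35.4% of all features called, 17.6% upward and 17.8% downward. In p53-deleted cells 21 were called higher and 5 lower (32.5%), against 36.5% of all features, 16.7% upward and 19.9% downward. These counts moved by over 1.5 times under some alternatives. With quantile normalization 28 of the 80 subunit genes were called in Ezh2-deleted and 40 of the 80 in p53-deleted cells, against 35.7% and 39.0% of all features. With normexp and quantile normalization 36 and 46 of the 80 were, against 36.0% and 38.9% of all features. With normexp and quantile normalization the share called was larger among the subunit genes than among all features in both genotypes. With quantile normalization alone it was larger only in p53-deleted cells. The main scaling gave a smaller share than that of all features in both genotypes. Without the WT DN1 or the WT DN2 array 13 subunit genes were called in either. The share of all features called without these arrays is not given here, so the drop is not read as particular to subunit genes. All Ezh2-deleted arrays lay above the WT arrays for 15 genes (18.8%) and below for 4 (5%), against 19.2% and 20.4% of all features. All p53-deleted arrays did so for 35 (43.8%) and 4 (5%) genes, against 21.6% and 22.8% of all features. The 2 comparisons share the WT arrays. Their medians were 0.48 and 0.48, against 0.16 and 0.09 for all features.

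Of the 36 tested complex I genes, 12 were called higher and 2 lower in Ezh2-deleted cells, against 17.6% and 17.8% of all features. In p53-deleted cells 17 were called higher and 2 lower, against 16.7% and 19.9% of all features. Complex III had 0 calls among 8 genes in either genotype, and whether the complexes differ was not tested. Ndufb7, an accessory subunit of complex I, was called at 1.65 ± 0.26 in Ezh2-deleted and 1.50 ± 0.26 in p53-deleted cells, Ndufa13 at 1.61 and 1.73, and Ndufa9 at 1.38 and 1.53 (limma adjusted p from 0.000561 to 0.00789). Ndufa13 had 8.58, 8.97 and 8.75 in Ezh2-deleted DN1, DN2 and DN3 cells and 8.99, 8.88 and 8.78 in p53-deleted cells, against 6.98, 7.02 and 7.46 in WT cells. Double-deleted cells had 7.67, 7.51 and 7.38, so the 2 genotypes of slide 2 stood apart from both genotypes of the other slides. Ndufb10 (1.33 and 1.13), Ndufa3 (1.25 and 1.21), Ndufs1 (1.17 and 1.11), Cox4i1 (1.15 and 1.10), Cox6a1 (0.98 and 1.05) and Ndufb8 (1.06 and 1.20) are given with their Ezh2-deleted minus WT difference first and their p53-deleted minus WT difference after it, and each passed its test.

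The lower genes were Ndufb2 (-1.85 in Ezh2-deleted and -1.93 in p53-deleted cells), Atp5o (-1.58 and -2.40), Ndufa8 (-1.51 and -1.47) and Cox4i2 (-1.09 and -1.48). Atp5j, a stalk subunit, was called lower in p53-deleted cells (-0.84 ± 0.29, adjusted p = 0.0488). Atp5o had 2.76, 3.93 and 3.85 in Ezh2-deleted DN1, DN2 and DN3 cells and 2.82, 2.55 and 2.71 in p53-deleted cells, against 4.32, 5.27 and 5.68 in WT cells. Double-deleted cells had 4.49, 4.87 and 5.03, within the WT range.

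Probes of the same gene disagreed in these cross-slide comparisons. For the 22 genes with 2 or more probes (51 probes), the range over a gene's probes had a median of 0.53 in Ezh2-deleted against WT and 0.48 in p53-deleted against WT, with largest values of 6.09 and 6.26, and 5 genes exceeded 1 in each. In DN2 against DN1 the median range was 0.08 and the largest 0.25. It was 0.04 in DN3 against DN2, 0.07 in double-deleted against WT, 0.07 in Ezh2-deleted against p53-deleted and 0.23 in the leukemias. The median probe range was thus lower in each of these 5 comparisons than in those of slide 2 with the WT arrays. The called genes named in the preceding paragraphs on the slide 2 comparisons had 1 probe each. Their calls could not be checked against another probe.

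Atp5c1, the gamma stalk of ATP synthase, showed the widest gap. In Ezh2-deleted minus WT cells its brighter probe gave 0.61 (7.58 against 6.97) and its other probe -5.48 (-0.45 against 5.02). In DN2 minus DN1 the same probes gave 0.31 and 0.27. Cox7c, a small complex IV subunit, gave 0.69 and -2.57 over its 2 probes above background on all arrays in Ezh2-deleted minus WT cells, and 0.69 and 0.49 in DN2 minus DN1. Sdhc, a membrane anchor of complex II, was called higher by the probe read for the gene (1.34 in Ezh2-deleted and 1.13 in p53-deleted cells). Its other probe gave -0.32 and -0.52. The probe read was the brighter of the 2 only on slide 2. In WT DN1, DN2 and DN3 cells it had 2.65, 3.35 and 3.81, against 2.90, 3.72 and 4.09. Its choice by highest mean thus rested on slide 2, and its upward call is not independent of that choice. The probe read for Cox7c was likewise the brighter of its 2 only on slide 2, with 4.46 in WT DN1 cells, against 5.21. Uqcrq and Atp5l were the other 2 with a range above 1.

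**Figure D5:**
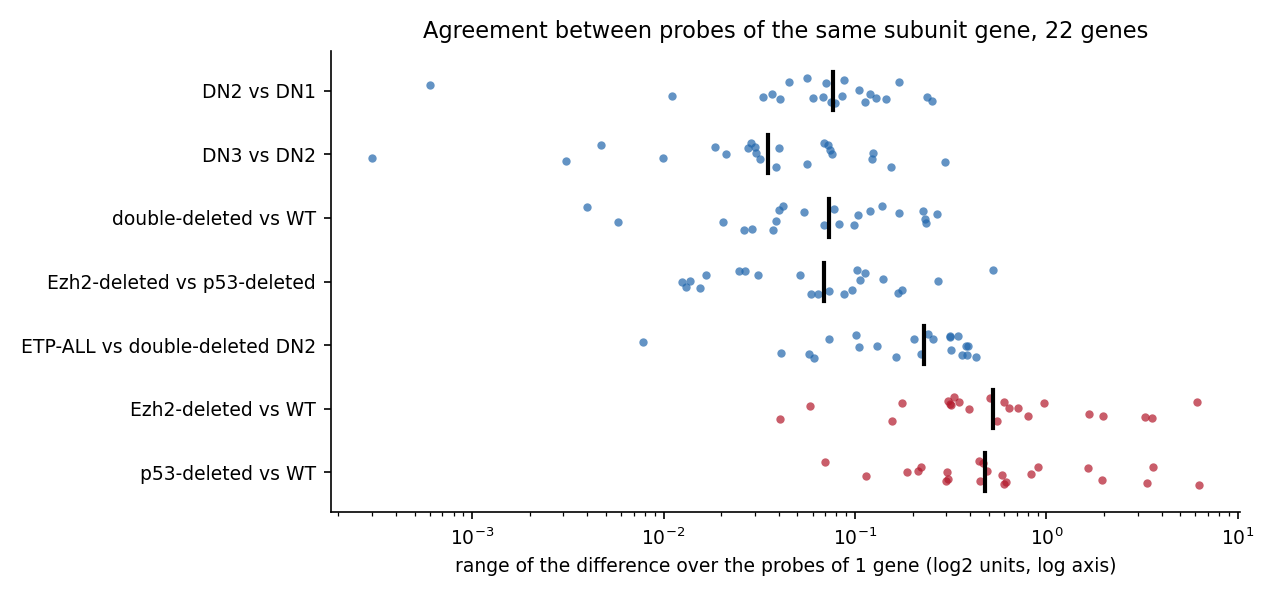
Range of the difference over the probes of 1 gene (log2 units, log axis) for 22 subunit genes with 2 or more probes, in 7 comparisons, with a bar at the median. The medians are 0.53 and 0.48 in the comparisons of Ezh2-deleted and p53-deleted cells with WT (red) and 0.04 to 0.23 in the other 5 (blue).

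In the leukemias compared with double-deleted DN2 cells, no subunit gene passed limma's test (1 with an unadjusted p under 0.05), against 2.47% of all features, and the fitted median was 0.01, against -0.01 for all features. The fit placed both leukemias against the DN2 level expected from all stages and genotypes, and slide 4 held both, so slide and leukemia cannot be told apart. Directly against the double-deleted DN2 array, the median was -0.19 in mouse 13 (26 of 80 higher) and 0.12 in mouse 19 (56 higher). The leukemias thus lay on either side of the 1 non-leukemic array. On both leukemic arrays 26 subunit genes were above that array and 24 below it (32.5% and 30.0%), against 35.8% and 36.9% of all features.

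Cox7a1 had the largest leukemic difference, with -0.69 and 0.08 in the leukemias of mice 13 and 19, against 0.78 in double-deleted DN2 cells (fitted -1.17 ± 0.63, SE; limma adjusted p = 0.359). Ndufa10, a complex I accessory subunit, had 2.88 and 3.32, against 4.04 (fitted -0.69). Sdha had 4.40 and 4.34, against 4.82 (fitted -0.56). Ndufa6, an accessory subunit of complex I, went the other way with 6.28 and 6.05, against 5.52 (fitted 0.63 ± 0.27; adjusted p = 0.254). Cox4i2 differed most between the 2 leukemias, with -1.34 in mouse 13 and 0.31 in mouse 19. The proliferation list had a median of -2.09 in mouse 13 and -0.42 in mouse 19 relative to double-deleted DN2 cells, and its part in these values was not tested.

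Most subunit genes followed the median of the set over the 14 arrays, which share scaling and, in groups, a slide. Pearson's r with that median, a description over 14 arrays that includes each gene itself, had a median of 0.82, was above 0.9 for 16 genes and below 0.5 for 13. Cox7c was closest (0.97), then Atp5k (0.96), Ndufv2 (0.95) and Uqcr11 (0.95). The value of Cox7c holds for the probe read, which was brighter than its other probe above background on all arrays only on slide 2. Its likeness with that other probe was not computed. Cox4i2 (-0.24), Ndufa8 (-0.01), Atp5o (0.00), Cox7a2l (0.06) and Cox6a2 (0.11) were the least alike. Of these 5, Ndufa8, Atp5o and Cox4i2 were among the genes called lower in the cross-slide comparisons.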

How the data were processed

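RNA from 14 samples (20 ng of total RNA each, per the labels' protocols) was labelled with Cy3 and hybridised to 1-colour Agilent arrays. The scanner files hold spot intensity, which Agilent Feature Extraction 10.7.1.1 had background-corrected, per the file headers, which name mm9 for the array design. The authors' deposited value table holds a linear signal with a 75th percentile of 1.002 to 1.004 and a median of 0.065 to 0.105 in each array, which matched the scanner values divided by that percentile, and it served as an alternative.

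The 59305 non-control spots were averaged to 55681 probes, of which 27656 were named through RefSeq accessions (GRCm38.p6) and 28025 stayed unnamed. No probe was saturated. The files lack the gene name column that the choice of genes assumed, so RefSeq symbols replaced it. Each array's log2 processed signal was set to its 75th percentile. Features were unnamed probes or the brightest probe of a gene, well above background on at least 2 arrays (27035 features).

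The limma 3.58.1 functions lmFit and eBayes (R 4.3.3) fitted genotype and stage additively on 12 non-leukemic arrays, and on all 14 for the leukemias, with Benjamini-Hochberg adjustment over all features and a threshold of 0.05. SEs are moderated. The number of arrays limits the precision. On simulated data (26961 features) changes of 2 log2 units were recovered in 54% of cases for DN2 against DN1, 30% for double-deleted against WT and 18% for the leukemias. The noise was drawn independently for each array, without slide effects, so recovery in the measured arrays may differ.

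The genes, lists and tests were chosen with earlier results of these data known. Named genes were, in each comparison, called genes (up to 10 a direction), otherwise the 4 with the largest differences, with fixed core subunits, tissue-restricted forms, genes whose probes opposed each other by over 0.5, and genes not above background. Alternatives were scaling, background correction (normexp, offset 50), filters, probe choice, slide as a block or within slides, and each array left out. Results on some genes are not reported here.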

Additional observations from a re-analysis of the deposited data

Results flagged for a closer look

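Among 215 sets of 4 genotype values examined for 1 array far from the other 3, 3 were picked out, where chance picks out about 1 in 20. Atp5j in DN1 cells had 4.79 in Ezh2-deleted mice, against 4.93 to 4.96 in the other genotypes, a gap of under 0.2. The DN3 minus DN2 difference of Ndufa13 was 0.45 in WT cells, against -0.22 to -0.11 in the others. That of Ndufa5 was 0.66 in WT cells, against 0.10 to 0.19.

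The median DN2 minus DN1 difference of the 80 subunit genes had the opposite sign in 1 genotype. It was -0.33 in p53-deleted cells, against 0.32 to 0.98 in the other genotypes. The difference was not tested, since each genotype has 1 array a stage. The 9 natural killer cell markers were all above background on the p53-deleted DN2 array, against 3 to 5 on the other DN2 arrays. The p53-deleted DN1 array had 3 of 8 myeloid markers above background, against 8 on each of the other DN1 arrays, and the 12 proliferation genes had a median difference of -0.35 in p53-deleted cells. The part of any of these in the reversal was not tested.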

How the results depend on the processing

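The stage comparisons were matched by genotype and the genotype comparisons by stage, through the terms of the fit. No pairing by animal was possible, because every non-leukemic label carries replicate number 1 and names no mouse. With arrays left out in turn, the number of subunit genes called ran from 0 to 12 for DN2 vs DN1 (12 without p53-deleted DN1, 1 without p53-deleted DN2), 0 to 1 for Ezh2-deleted vs p53-deleted, 13 to 25 for Ezh2-deleted vs WT and 13 to 26 for p53-deleted vs WT, and the cause was not tested. The calls in Ezh2-deleted vs WT were 13 without Ezh2-deleted DN2, WT DN1 or WT DN2 and 14 without Ezh2-deleted DN3, and those in p53-deleted vs WT were 17 without p53-deleted DN1 and 13 without WT DN1 or WT DN2. Without all p53-deleted arrays 11 were called for DN2 vs DN1, against 11.3% of all features. The all-feature share was 9.58% without p53-deleted DN1 and 6.61% without p53-deleted DN2. For the other arrays left out the share of all features called is not given here, so those counts are not read as particular to subunit genes. The member median ran from -0.06 to 0.19 for DN3 vs DN2 and from 0.31 to 0.70 for Ezh2-deleted vs WT. Quantile normalization called 2 in double-deleted vs WT and 40 in p53-deleted vs WT, and normexp with quantile normalization called 4 and 46, with 36 in Ezh2-deleted vs WT; of all features 7.39% and 39.0%, then 8.04%, 38.9% and 36.0%, were called. The Ezh2-deleted vs WT median was 0.38 with quantile normalization, 0.26 with the percentile over probes above background on all arrays, 0.35 with normexp and 0.37 with the mean of a gene's probes. Sdhc, with its second probe, went to -0.32 (Ezh2-deleted vs WT) and -0.52 (p53-deleted vs WT). These were the reversals among the named genes recomputed under each alternative, which did not include Atp5c1 and Cox7c, whose probes also differ in sign. Other counts stayed within 1.5 times and other medians within the spread between pairs, which for Ezh2-deleted vs p53-deleted, double-deleted vs WT and the leukemias included values on both sides of 0. A slide block could not be estimated for Ezh2-deleted vs WT, p53-deleted vs WT or the leukemias. The fits had 6 residual degrees of freedom, or 7 for the leukemias. The test recovered 6% of simulated features with a log2 change of 1 for DN2 vs DN1. It recovered 0% for double-deleted vs WT and 0% for the leukemias. Recovery in the other comparisons, or for the subunit genes alone, was not tested.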
